A study of Mus musculus with 36 samples.

Results

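The genes described here make and remove eicosanoids, the signalling lipids formed from arachidonic acid. The set was named by gene: Ltc4s, Lta4h, Alox5ap, Ptgs1, Ptgs2, Ptges, Ptges2, Ptges3, Hpgd and Ephx2, that is 10 genes, of which 9 were among the 15730 genes of the count table. Ptgs2, the inducible cyclooxygenase, is not analysed here. All 9 genes passed the low-count filter and were tested among 15726 genes.

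Arachidonic acid is released from membrane phospholipids and enters several enzymatic branches. In the leukotriene branch, 5-lipoxygenase works with its activating protein (Alox5ap) to make leukotriene A4, which Lta4h turns into leukotriene B4, a chemoattractant of leukocytes, and Ltc4s joins to glutathione to give leukotriene C4, the parent of the cysteinyl leukotrienes. In the prostanoid branch, cyclooxygenases (Ptgs1, Ptgs2) make prostaglandin H2, prostaglandin E synthases (Ptges, Ptges2, Ptges3) turn it into prostaglandin E2, and 15-hydroxyprostaglandin dehydrogenase (Hpgd) inactivates the product. In the cytochrome P450 branch, epoxides of arachidonic acid are formed and then hydrolysed by soluble epoxide hydrolase (Ephx2), and in the kidney these lipids act on blood flow and salt transport.

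RNA was sequenced from kidney cortex of male ApoE−/− mice on a C57BL/6 background, which lack apolipoprotein E and are prone to atherosclerosis; every group, controls included, carried this disruption. Diabetic mice had received streptozotocin, a toxin of pancreatic beta cells, from 6 weeks of age as 5 daily injections of 55 mg/kg, and the others were labelled nondiabetic. Mice of each kind were injected 2 times a week with 0.1% ethanol (vehicle), with 5 µg/kg lipoxin A4 (LXA4, itself an arachidonic acid product) or with 1.7 µg/kg benzo-LXA4, a synthetic analog. The labels describe an intervention protocol with injections in weeks 10 to 16 of 16 but do not say outright that these libraries belong to it. The 6 groups had 6 libraries each. Whether each numbered replicate is a separate mouse is not stated in the labels. The p-values therefore measure the spread between these samples, some of which may be technical.

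Total counts ran from 8896193 to 43305005 per library, with a median of 27310076. A group of 3 abundant noncoding genes (Gm26917, Gm23935 and Gm42418) took 55.59% of the counts of diabetic LXA4 replicate 6 and 16.64% of those of nondiabetic vehicle replicate 3, which were also the shallowest libraries, and at most 6.48% in the other 34. Several extreme values below come from this pair, and the values without it are given where they differ. The 8 proximal tubule markers summed to between 7560 and 16700 CPM (library-scaled counts, with TMM factors) per library, which matches the labelled cortex. The 2 inner medulla markers summed to 2.13 to 169 CPM and the 5 urothelium markers to 0 to 35.8 CPM. These 2 sums thus varied widely between libraries. Apoe, the disrupted gene, had group means between 2.14 and 2.65 CPM. Its reads are counted over the whole gene, so they do not check the disruption itself.

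Per kilobase of exon, the cortex contained the 9 transcripts at very different levels. Over the 36 libraries the median was 112 CPM per kb for Ephx2 (range 62.5 to 152) and 30.8 CPM per kb for Ptges3 (21.6 to 42.9), and these ranges overlapped neither each other nor those of the other genes. Next came Ptgs1 with 6.01, Hpgd with 5.48, Lta4h with 5.43, Ltc4s with 5.22, Ptges2 with 4.81 and Ptges with 4.11 CPM per kb, whose ranges all overlapped. Alox5ap was lowest with a median of 1.5 CPM per kb (0.967 to 2.22). Ltc4s moved most in this order: its median ran from 2.44 to 2.58 CPM per kb in the nondiabetic and from 6.83 to 7.79 CPM per kb in the diabetic groups.

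The upstream sequences of the genes that changed are shown to let a reader see what lies at these starts, since the series is about the Egr-1 network. They are taken from the 250 bases before the RefSeq transcription start on GRCm38.p6, without bases that GENCODE M21 places inside the gene, and are written 5′ to 3′ on the strand of the gene. They lie at chr11:50238617-50238782 (minus strand, 166 bases) for Ltc4s, chr2:36230176-36230425 (plus strand, 250 bases) for Ptgs1 and chr10:128058732-128058953 (plus strand, 222 bases) for Ptges3. Ephx2, which also changed, is named only. Capitals mark matches to the Sp1 motif GGGCGG on either strand.
Ltc4s: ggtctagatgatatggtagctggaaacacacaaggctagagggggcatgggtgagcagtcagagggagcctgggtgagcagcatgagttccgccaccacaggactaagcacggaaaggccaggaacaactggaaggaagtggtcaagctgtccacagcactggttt
Ptgs1: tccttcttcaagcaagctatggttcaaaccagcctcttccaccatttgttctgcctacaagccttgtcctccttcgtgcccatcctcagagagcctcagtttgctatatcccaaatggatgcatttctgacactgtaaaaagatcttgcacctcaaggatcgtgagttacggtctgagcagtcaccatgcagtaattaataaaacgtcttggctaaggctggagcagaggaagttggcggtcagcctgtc
Ptges3: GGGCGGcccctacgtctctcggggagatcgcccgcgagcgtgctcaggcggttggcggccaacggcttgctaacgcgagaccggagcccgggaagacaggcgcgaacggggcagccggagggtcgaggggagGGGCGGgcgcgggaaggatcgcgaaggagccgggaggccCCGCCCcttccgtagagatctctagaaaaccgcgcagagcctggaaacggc

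The sequences differ in these motifs. Ptges3 has Sp1 matches starting at −250, −118 and −79, counted from the RefSeq start site, in a GC-rich window (73.7% G or C with the 50 bases after the start), whereas Ltc4s (58.7%) and Ptgs1 (50.7%) have none. Over the whole window, from 250 bases before to 50 after the start, Ptges, Ptges3 and Hpgd hold an Sp1 match, 3 of the 7 genes with a promoter entry, against 35.7% of 32851 mouse promoters of the same length. The EGR1 motif GCGNGGGCG, which can overlap an Sp1 match, was in 0 of the 7 windows on either strand, against 5.55% of all promoters. A match describes letters only, and its absence says only that these letters are not in this window.

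Diabetes was examined first, in each treatment arm and averaged over the 3 arms. The arms share no libraries with one another. Ltc4s was higher in diabetic mice in every arm, Ptges3 and Ephx2 were lower and Ptgs1 slightly higher on average, and Lta4h, Alox5ap, Ptges, Ptges2 and Hpgd passed the test in 0 of these comparisons. By edgeR's quasi-likelihood test at an adjusted p of 0.05, 1 of 9 genes passed under vehicle, where 5.6% of all genes tested did (3.44% higher and 2.16% lower). That gene was higher. Under LXA4 4 of 9 passed, 2 higher and 2 lower, against 27.7% of all genes (15.4% higher and 12.3% lower). Under benzo-LXA4 2 of 9 passed, 1 higher and 1 lower, against 4.06% of all genes (2.81% higher and 1.25% lower). Averaged over treatments 4 of 9 passed, 2 higher and 2 lower, against 35.4% of all genes (18.8% higher and 16.6% lower). The median log2 difference of the 9 genes was 0.02, −0.02, −0.07 and −0.04 in these comparisons, and that of all genes −0.01, 0.05, −0.01 and 0.01. The shares of all genes called depended on single libraries in some comparisons: under vehicle the 881 genes called became 441 to 1338 with 1 library left out, and under benzo-LXA4 638 became 389 to 606. For LXA4 in diabetic mice 56 became 0 to 88, and for its interaction with diabetes 39 became 0 to 106.

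**Figure D1:**
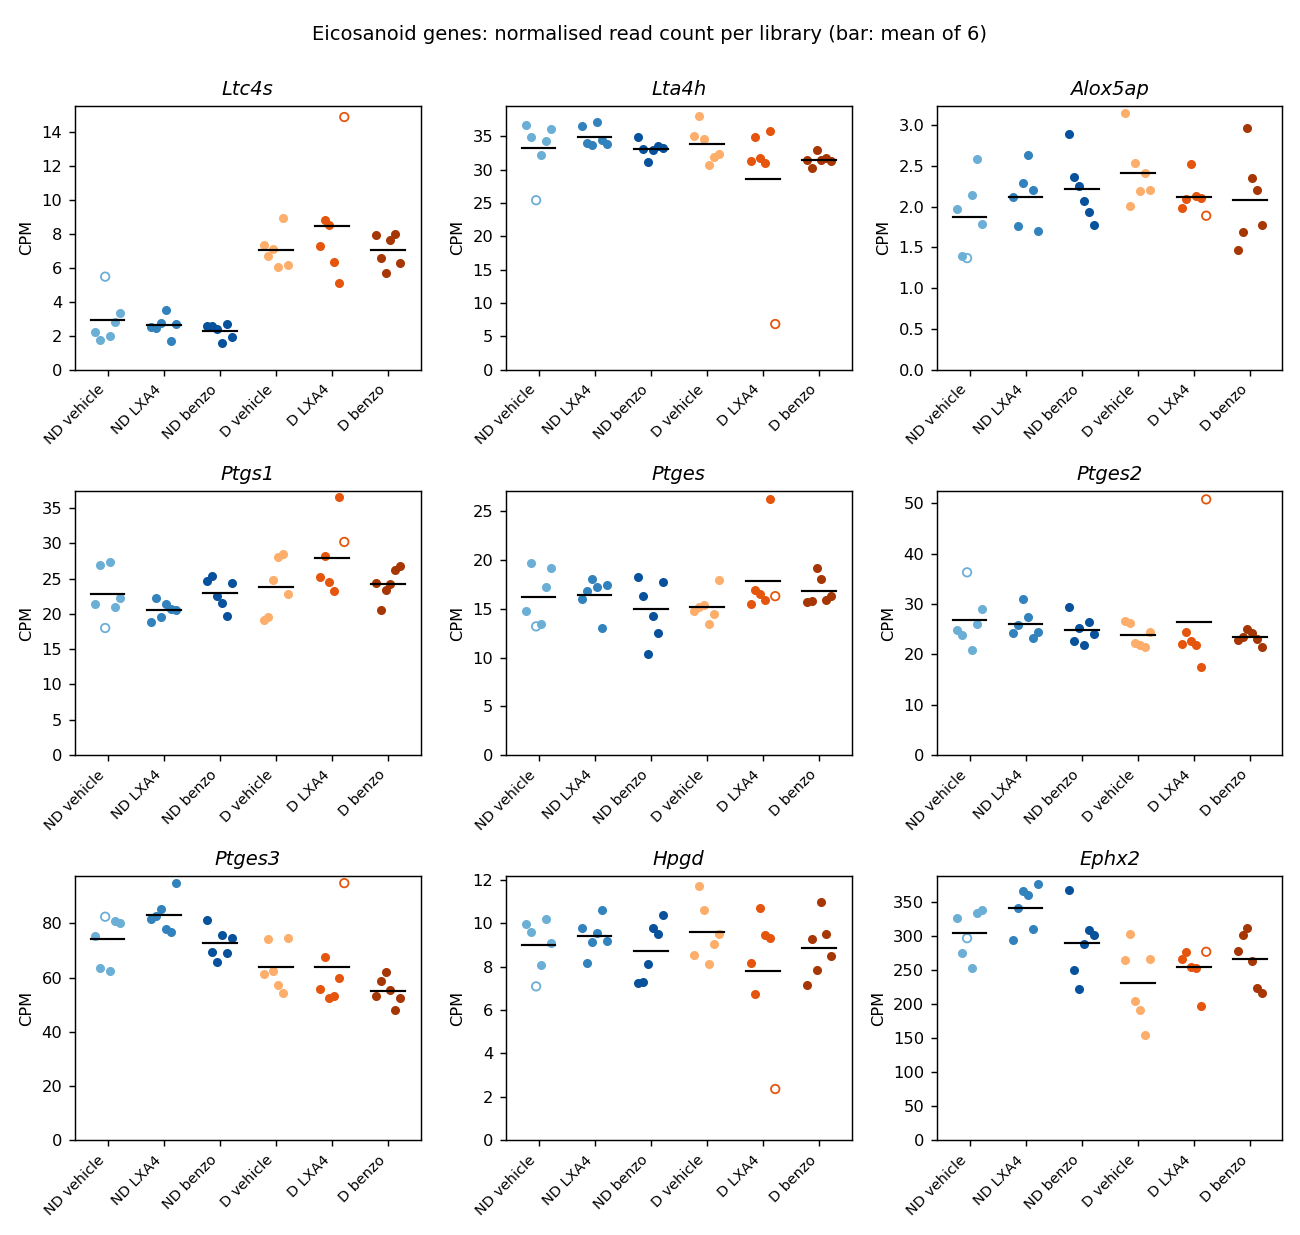
CPM of the 9 genes in each library, by group (ND, nondiabetic; D, diabetic; benzo, benzo-LXA4), with the mean of 6 as a bar and axes starting at 0; open circles are nondiabetic vehicle replicate 3 and diabetic LXA4 replicate 6, the libraries rich in noncoding RNA. Ltc4s separates the diabetic from the nondiabetic libraries within each arm, though not across arms. The open circle of the diabetic LXA4 group lies well away from the other 5 libraries for Ltc4s, Lta4h, Ptges2, Ptges3 and Hpgd.

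In the leukotriene branch, Ltc4s (leukotriene C4 synthase, ENSMUSG00000020377, GRCm38 chr11:50236461-50238616, minus strand) stood apart. In nondiabetic mice its lowest, median and highest values were 1.74, 2.51 and 5.49 CPM with vehicle, 1.72, 2.62 and 3.51 CPM with LXA4 and 1.59, 2.47 and 2.69 CPM with benzo-LXA4. In diabetic mice they were 6.07, 6.92 and 8.92 CPM with vehicle, 5.09, 7.9 and 14.9 CPM with LXA4 and 5.68, 7.12 and 8.02 CPM with benzo-LXA4. Within each arm all 6 diabetic libraries lay above all 6 nondiabetic ones. The highest nondiabetic and the highest diabetic value both came from the libraries rich in noncoding RNA. These levels rest on 36 to 267 reads per library.

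Ltc4s rose 2.5-fold under vehicle (95% interval 1.83 to 3.4, log2 1.32, adjusted p = 0.000229), 3.12-fold under LXA4 (2.29 to 4.25, log2 1.64, adjusted p = 5.04e-06) and 3.08-fold under benzo-LXA4 (2.26 to 4.19, log2 1.62, adjusted p = 1.31e-05). Averaged over treatments the rise was 2.88-fold (2.41 to 3.45, log2 1.53, adjusted p = 4.87e-11), which ranked 27 of all genes tested by p. Without the libraries rich in noncoding RNA the log2 rises were 1.54, 1.46 and 1.62 in the 3 arms. The rise under LXA4 was 0.32 larger on the log2 scale than under vehicle (interaction adjusted p = 0.609, 95% interval −0.3 to 0.94), so a difference between arms was not resolved. Without the same pair of libraries this interaction was −0.08 (adjusted p = 0.898), the opposite sign. Its fitted spread between replicates, 23% as a coefficient of variation, was the highest of the 9 genes, against 15.6% for the median gene. In whole tissue a change in the number of cells of a type and a change in RNA per cell cannot be told apart.

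A noncoding gene on the opposite strand overlaps Ltc4s. Gm26542 (ENSMUSG00000097887, chr11:50236953-50288839, plus strand, annotated as antisense) covers 1664 bases of Ltc4s, 268 of them exonic in both, and spans the upstream sequence printed above. It was singled out after its values were seen, because of this overlap. Its median was 13.4, 12.3 and 14.8 CPM in nondiabetic mice with vehicle, LXA4 and benzo-LXA4, and 32.3, 37.6 and 35.9 CPM in diabetic mice, without overlap within any arm. It rose by log2 1.19 (adjusted p = 1.04e-07), 1.61 (7.94e-11) and 1.40 (2.08e-09) in the 3 arms. The number of Ltc4s reads per 100 Gm26542 reads had group medians of 19.4, 20.3 and 16.5 in nondiabetic and 22.6, 21.1 and 17.9 in diabetic mice, with overlapping ranges. The libraries were directional, but the strand setting of the counting is not given in the sources used here, so reads of the shared exonic bases may have gone to either gene or to none, and their part in the Ltc4s result was not tested.

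**Figure D2:**
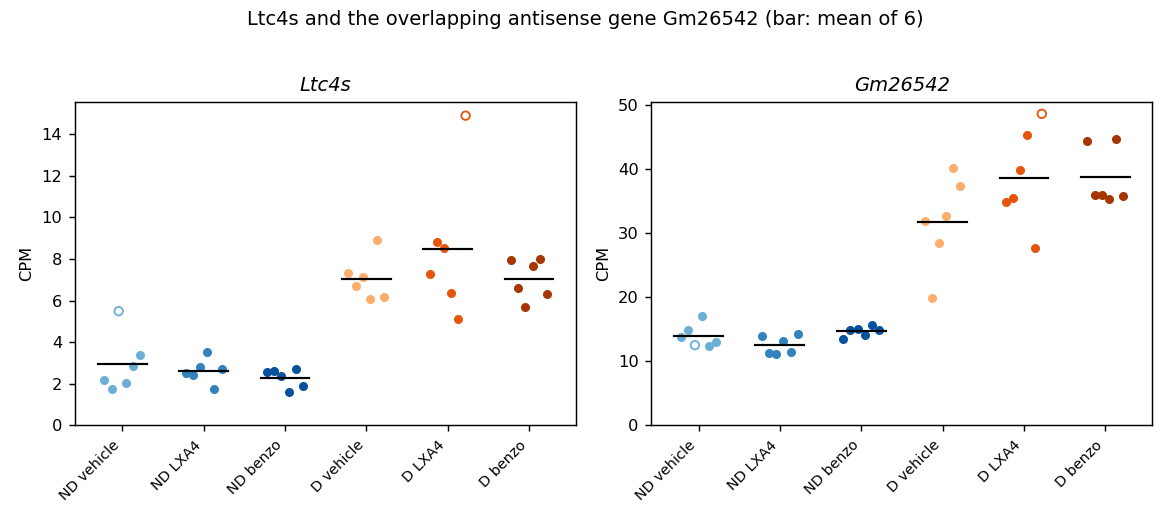
CPM per library of Ltc4s (left) and of the antisense gene Gm26542 (right) by group, bars being means of 6 and open circles the libraries rich in noncoding RNA. Both genes are higher in all 3 diabetic groups, and Gm26542 does not overlap between diabetic and nondiabetic libraries of any arm.

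Some leukocyte markers were higher in diabetic mice. Mast cells are a main source of leukotriene C4 in many tissues, and 0 of 7 mast cell and 0 of 6 neutrophil markers were in the table, so they are not analysed here. Of 10 macrophage markers, 5 rose averaged over treatments (Adgre1, Lyz2, C1qa, C1qb and Mrc1; median log2 of the 10 genes 0.29), where 18.8% of all genes were higher. Within the arms 0, 1 and 0 of the 10 passed under vehicle, LXA4 and benzo-LXA4. Their summed level ran from 77.1 to 113 CPM in nondiabetic and from 94.5 to 146 CPM in diabetic vehicle mice, from 80.9 to 116 and 96.3 to 139 CPM with LXA4, and from 89.2 to 115 and 85.2 to 133 CPM with benzo-LXA4. These ranges overlapped in every arm. Of 7 lymphocyte and plasma cell markers 4 were tested, and Cd3d, Cd79a and Ms4a1 are not analysed here. Among the 4 markers, Cd247, Jchain and Mzb1 rose averaged over treatments (3 of 4), where 18.8% of all genes were higher. Within the arms 2 were higher under vehicle (Cd247 and Mzb1), 1 under LXA4 (Cd247) and 2 under benzo-LXA4 (Cd247 and Jchain). Of all genes 3.44%, 15.4% and 2.81% were higher in these arms. The sum of the 4 markers ran from 4.56 to 10.1 CPM in nondiabetic and from 9.09 to 15.7 CPM in diabetic vehicle mice. With LXA4 it ran from 4.79 to 7.61 and 5.65 to 8.68 CPM, and with benzo-LXA4 from 3.98 to 7.89 and 5.68 to 22.9 CPM. Their part in the Ltc4s result was not tested.

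The partners of Ltc4s in the branch did not pass the test. Alox5ap, the membrane protein that presents arachidonate to 5-lipoxygenase, had medians of 1.88, 2.16 and 2.16 CPM in nondiabetic and 2.31, 2.1 and 2 CPM in diabetic mice with vehicle, LXA4 and benzo-LXA4, and its groups overlapped in every arm. Its log2 difference under vehicle was 0.35 (95% interval 0.01 to 0.68, adjusted p = 0.216). Lta4h, the hydrolase that makes leukotriene B4, had medians of 34.6, 34.2 and 33.1 CPM in nondiabetic and 33.5, 31.5 and 31.4 CPM in diabetic mice. Diabetic LXA4 replicate 6 read 6.85 CPM from 29 counts, while the other 5 libraries of its group lay between 31 and 35.8 CPM. Averaged over treatments the log2 difference of Lta4h was −0.10 (adjusted p = 0.404). Without the libraries rich in noncoding RNA it was −0.07, with an adjusted p of 0.0387.

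Of the cyclooxygenases, Ptgs1 (ENSMUSG00000047250, chr2:36230426-36252272, plus strand), the constitutive enzyme that feeds all prostanoids, passed the test under LXA4 but not in the other arms. Its lowest, median and highest values in nondiabetic mice were 18, 21.8 and 27.4 CPM with vehicle, 18.8, 20.6 and 22.2 CPM with LXA4 and 19.7, 23.5 and 25.4 CPM with benzo-LXA4. In diabetic mice they were 19.2, 23.8 and 28.5 CPM with vehicle, 23.3, 26.7 and 36.5 CPM with LXA4 and 20.6, 24.3 and 26.8 CPM with benzo-LXA4. Diabetic and nondiabetic libraries overlapped under vehicle and under benzo-LXA4 and were separate under LXA4. The log2 difference was 0.06 under vehicle (adjusted p = 0.808), 0.44 under LXA4 (adjusted p = 0.00378) and 0.08 under benzo-LXA4 (adjusted p = 0.784), and 0.19 averaged over treatments (95% interval 0.06 to 0.32, adjusted p = 0.0168). The interaction of LXA4 with diabetes was 0.38 (95% interval 0.07 to 0.7, unadjusted p = 0.018) and missed the threshold after adjustment over all genes (adjusted p = 0.222), where 0.248% of genes passed.

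Some markers of other cells were also higher in diabetic mice in the LXA4 arm, where 15.4% of all genes were higher. Psca was called among 5 urothelium markers, whose summed level ran from 0 to 5.95 CPM in nondiabetic and from 0.246 to 35.8 CPM in diabetic LXA4 mice (median log2 2.74), and each of the 5 was at 0 in some library. The 2 inner medulla markers, of which 0 passed, summed to 2.13 to 40.5 and 4.31 to 169 CPM (median log2 1.40). Of 4 fibroblast markers Col1a1 and Lum passed, and the sum ran from 57.7 to 84.8 and from 77.4 to 422 CPM. The smooth muscle marker Myh11 and the podocyte marker Nphs1 passed as 1 of 4 each, with sums of 39 to 92.5 and 60.3 to 97.4 CPM and of 165 to 227 and 162 to 270 CPM. Of 7 collecting duct markers 0 passed (253 to 297 and 272 to 364 CPM). The interaction of LXA4 with diabetes had a median log2 of 3.76 over the urothelium and 2.20 over the inner medulla markers, with 0 passing. All these ranges overlapped. Nos1, 1 of 4 thick limb and macula densa markers, was higher in diabetic mice in all 3 arms. Other markers were lower in diabetic mice in the LXA4 arm, where 12.3% of all genes were lower. These were Ppbp (1 of 2 platelet markers), Hbb-bs (1 of 5 erythroid markers) and 4 of 8 proximal tubule markers. The part of all these cells in the Ptgs1 result was not tested.

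Of the prostaglandin E synthases, Ptges3 fell and the other two did not pass the test. Ptges3 (ENSMUSG00000071072, chr10:128058954-128077272, plus strand), also known as p23, is a cochaperone of Hsp90 as well as a cytosolic synthase. Its lowest, median and highest values in nondiabetic mice were 62.3, 77.7 and 82.5 CPM with vehicle, 77, 82.2 and 95.1 CPM with LXA4 and 65.7, 72.2 and 81.2 CPM with benzo-LXA4. In diabetic mice they were 54.4, 62 and 74.6 CPM with vehicle, 52.4, 57.8 and 94.9 CPM with LXA4 and 48, 54.3 and 62.2 CPM with benzo-LXA4. The groups overlapped under vehicle, overlapped under LXA4 only through diabetic LXA4 replicate 6 at 94.9 CPM, and did not overlap under benzo-LXA4.

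The log2 difference of Ptges3 was −0.21 under vehicle (95% interval −0.43 to 0.01, adjusted p = 0.261), −0.39 under LXA4 (adjusted p = 0.00799) and −0.40 under benzo-LXA4 (adjusted p = 0.0262). Averaged over treatments Ptges3 fell to 0.793 of its nondiabetic level (95% interval 0.726 to 0.866, adjusted p = 0.000109). The call under LXA4 was lost with an adjusted p of 0.0683 when only these 2 groups were fitted, and without the libraries rich in noncoding RNA the log2 difference was −0.53 (adjusted p = 6.52e-05). The call under benzo-LXA4 was lost without nondiabetic benzo-LXA4 replicate 1, 4 or 6 or diabetic benzo-LXA4 replicate 1, 4, 5 or 6, with adjusted p up to 0.081.

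Ptges, the microsomal synthase that is often induced together with Ptgs2, had medians of 16, 17 and 15.3 CPM in nondiabetic and 15, 16.4 and 16.1 CPM in diabetic mice with vehicle, LXA4 and benzo-LXA4. Its groups overlapped in every arm, and its averaged log2 difference was 0.07 (95% interval −0.08 to 0.22). Ptges2, a membrane-associated synthase, had medians of 25.5, 25.2 and 24.6 CPM in nondiabetic and 23.3, 22.4 and 23.3 CPM in diabetic mice. Diabetic LXA4 replicate 6 reached 50.8 CPM while the other 5 libraries of the group lay between 17.4 and 24.4 CPM. The log2 difference of Ptges2 under LXA4 was −0.02 (adjusted p = 0.928) with all libraries and −0.26 (adjusted p = 0.0499) without that replicate. Averaged over treatments it was −0.09 (adjusted p = 0.428), and −0.17 without diabetic LXA4 replicate 6 (adjusted p = 0.0157).

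Of the removing enzymes, Ephx2 (ENSMUSG00000022040, chr14:66084374-66124500, minus strand) was lower in diabetic mice and Hpgd did not pass. The lowest, median and highest values of Ephx2 in nondiabetic mice were 253, 312 and 339 CPM with vehicle, 294, 351 and 377 CPM with LXA4 and 223, 295 and 368 CPM with benzo-LXA4. In diabetic mice they were 155, 235 and 303 CPM with vehicle, 198, 260 and 277 CPM with LXA4 and 217, 270 and 312 CPM with benzo-LXA4. Only the LXA4 arm had no overlap. Its log2 difference was −0.40 under vehicle (95% interval −0.66 to −0.13, adjusted p = 0.0646), −0.43 under LXA4 (adjusted p = 0.0149) and −0.12 under benzo-LXA4 (adjusted p = 0.691).

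Averaged over treatments Ephx2 fell to 0.803 of its nondiabetic level (95% interval 0.722 to 0.893, adjusted p = 0.00144). Under vehicle it passed the threshold without nondiabetic vehicle replicate 4 (adjusted p = 0.0405) and without diabetic vehicle replicate 2 (0.0162) or 6 (0.0491). The interaction of benzo-LXA4 with diabetes was 0.27 for Ephx2 (95% interval −0.1 to 0.65, unadjusted p = 0.147), so the smaller difference in that arm was not resolved from the one under vehicle. Proximal tubule markers moved in the same direction: 5 of 8 fell averaged over treatments (Slc34a1, Lrp2, Slc5a2, Slc7a13 and Miox; median log2 of the 8 genes −0.40), where 16.6% of all genes were lower. Under vehicle, LXA4 and benzo-LXA4 2.16%, 12.3% and 1.25% of all genes were lower. Of the 8 markers 2 fell under vehicle (Slc7a13 and Miox), 4 under LXA4 (Slc34a1, Lrp2, Slc7a13 and Miox) and 1 under benzo-LXA4 (Miox). Their summed level ran from 10800 to 16600 CPM in nondiabetic and from 8190 to 13300 CPM in diabetic vehicle mice, from 14600 to 16700 and 7560 to 13100 CPM with LXA4, and from 11800 to 15100 and 9150 to 12400 CPM with benzo-LXA4, without overlap in the LXA4 arm. The part of tubule content in the Ephx2 result was not tested.

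Hpgd, which oxidises prostaglandin E2 and also lipoxins, had medians of 9.34, 9.37 and 8.82 CPM in nondiabetic and 9.27, 8.76 and 8.87 CPM in diabetic mice with vehicle, LXA4 and benzo-LXA4. Its averaged log2 difference was −0.04 (95% interval −0.23 to 0.15), the smallest of the 9 genes. Diabetic LXA4 replicate 6 read 2.36 CPM from 10 counts, below the other 5 libraries at 6.74 to 10.7 CPM.

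**Figure D3:**
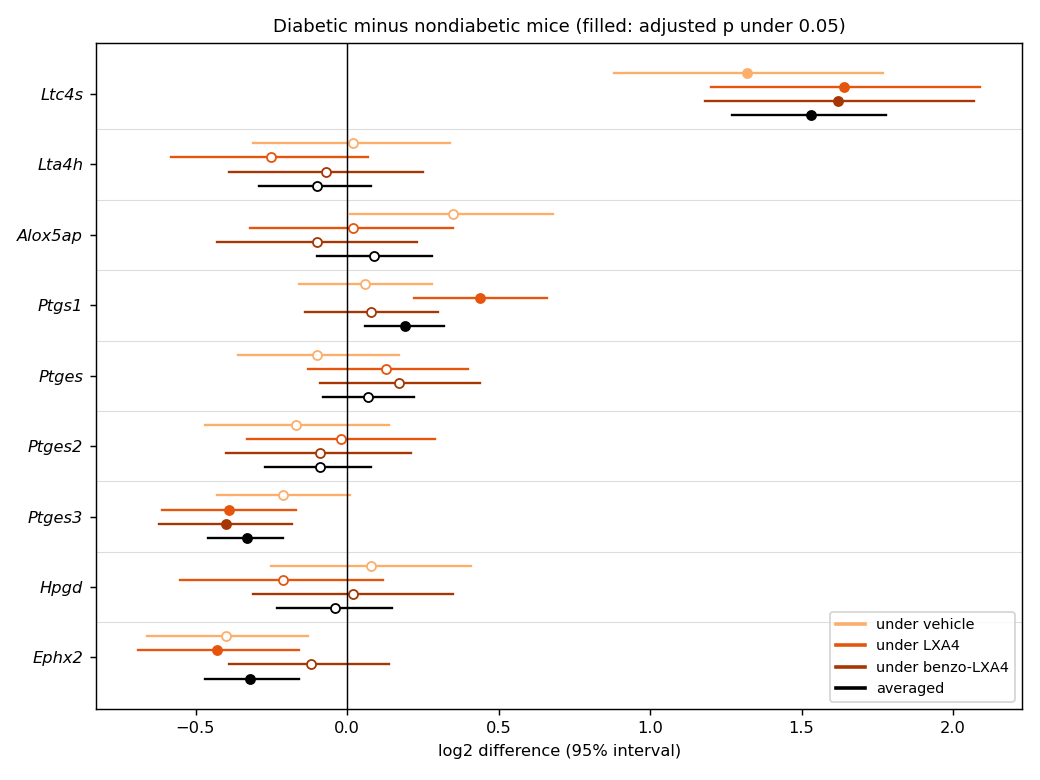
Log2 difference of diabetic from nondiabetic mice for each of the 9 genes under vehicle, LXA4 and benzo-LXA4 and averaged over the 3 arms, with 95% intervals; filled points passed an adjusted p of 0.05. Only Ltc4s is filled in all 4 comparisons, and Ptges3 and Ephx2 lie below 0 throughout.

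The compounds were then compared with vehicle within diabetic and within nondiabetic mice. These comparisons use the same vehicle libraries for both compounds, and the doses differ, so the values are set side by side and the compounds are not compared with each other. In diabetic mice 0 of 9 genes passed with LXA4, where 0.356% of all genes did (0.312% higher and 0.0445% lower), and 0 of 9 with benzo-LXA4, where 0% did. In nondiabetic mice 0 of 9 passed with LXA4 and 0 of 9 with benzo-LXA4, against 0% of all genes in both. At an unadjusted p under 0.05 edgeR gave 2468, 891, 967 and 452 of 15726 genes in these 4 comparisons, among which was 1 of the 9 genes (Ptgs1 with LXA4 in diabetic mice). DESeq2 called 221, 48, 3 and 2 genes and voom 172, 105, 3 and 0, with 0 of the 9 in each.

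Ltc4s in diabetic mice differed from vehicle by log2 0.21 with LXA4 (95% interval −0.22 to 0.64) and by −0.01 with benzo-LXA4 (−0.43 to 0.41). In nondiabetic mice the differences were −0.11 (−0.56 to 0.34) and −0.31 (−0.77 to 0.15). In diabetic mice these intervals correspond to 0.86 to 1.56 and 0.744 to 1.33 times the vehicle level, so changes within those limits were not resolved. Without the libraries rich in noncoding RNA the Ltc4s differences were 0.02 (−0.31 to 0.35) and −0.01 (−0.32 to 0.31) in diabetic mice and 0.10 (−0.25 to 0.46) and −0.08 (−0.45 to 0.28) in nondiabetic mice, so the first nondiabetic value changed sign. With LXA4 in diabetic mice Ptges differed by 0.24, Hpgd by −0.24 and Ptgs1 by 0.23 (adjusted p = 0.303 for Ptgs1, the smallest of the 9). Without that pair the values were 0.26, −0.11 and 0.20. For benzo-LXA4 the range in diabetic mice was −0.23 (Alox5ap) to 0.20 (Ephx2). In nondiabetic mice the other 8 genes lay between −0.15 and 0.17 with LXA4 and between −0.12 and 0.21 with benzo-LXA4. The interaction of LXA4 with diabetes passed for 0 of 9 genes (0.248% of all genes, 0.21% higher and 0.0382% lower) and that of benzo-LXA4 for 0 of 9 (0% of all genes, 673 at an unadjusted p under 0.05, 0 by DESeq2 and 0 by voom).

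**Figure D4:**
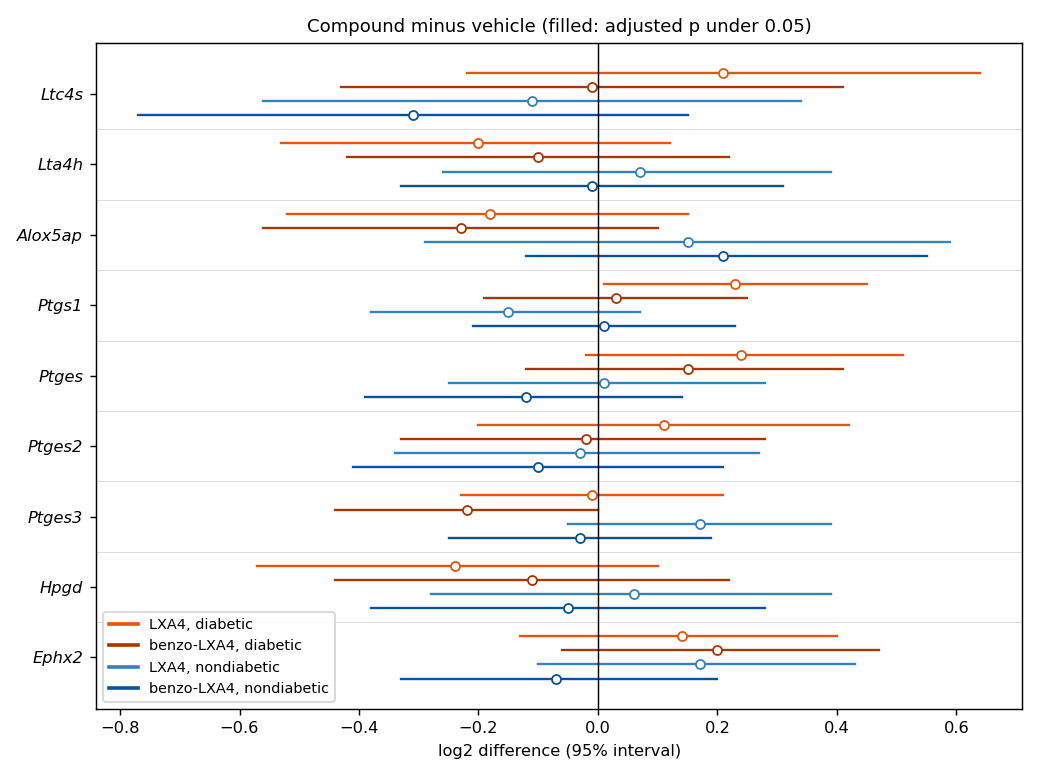
Log2 difference from vehicle for each of the 9 genes with LXA4 and benzo-LXA4 in diabetic and nondiabetic mice, with 95% intervals; no point is filled, since 0 of 9 genes passed in any of the 4 comparisons. The widest intervals belong to Ltc4s.

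Other genes of the pathway were taken from a list of 82, of which 56 were tested and 26 are not analysed here. Under vehicle 4 were higher and 2 lower in diabetic mice (10.7% of 56, against 5.6% of all genes), under LXA4 9 and 7 (28.6%, against 27.7%) and under benzo-LXA4 1 and 0 (1.79%, against 4.06%). Averaged over treatments 18 were higher and 10 lower (50%, against 35.4% of all genes), with a median log2 difference of 0.14 against 0.01 for all genes. Without the libraries rich in noncoding RNA 8 were higher and 4 lower under vehicle (21.4%, against 8.89% of all genes), 11 and 8 under LXA4 (33.9%, against 36.9%) and 5 and 2 under benzo-LXA4 (12.5%, against 12.1%). Averaged over treatments they were then 18 and 11 (51.8%, against 47.4%). In the 4 compound comparisons and both interactions 0 of 56 passed.

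Ephx1, the microsomal epoxide hydrolase, was the gene of this list with the smallest p and the only one that passed in all 3 arms. With vehicle its level was 30.1 ± 9.64 CPM in nondiabetic mice (SD, n = 6) and 69.2 ± 23.9 CPM in diabetic mice, with LXA4 20.9 ± 3.25 and 67.4 ± 15 CPM, and with benzo-LXA4 31.9 ± 6.36 and 61.2 ± 7.02 CPM. It rose by log2 1.2 (adjusted p = 0.000193), 1.70 (4.8e-07) and 0.94 (0.00374), and by 1.28 averaged over treatments (2.76e-10). Ephx1 was thus higher and Ephx2 lower in diabetic mice averaged over treatments. Ephx3, the other epoxide hydrolase of the list that was tested, differed by 0.15 (95% interval −0.17 to 0.48, adjusted p = 0.48). Ephx4, also on the list, is not analysed here.

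Upstream of the leukotriene synthases, Alox5 (5-lipoxygenase) rose by log2 1.11 under vehicle, from 0.461 ± 0.0719 to 0.99 ± 0.436 CPM without overlap (adjusted p = 0.0287). This call was lost without nondiabetic vehicle replicate 5 or 6 or diabetic vehicle replicate 4 or 5, with adjusted p up to 0.128. In nondiabetic and diabetic mice Alox5 was at 0.34 ± 0.124 and 0.384 ± 0.261 CPM with LXA4, the lowest diabetic library being at 0. With benzo-LXA4 it was at 0.511 ± 0.164 and 0.751 ± 0.213 CPM, so its levels were low throughout. Alox12, a platelet-type lipoxygenase, rose by 0.80 under LXA4 (adjusted p = 0.00505), and by 0.54 (0.00761) without the libraries rich in noncoding RNA. Averaged over treatments both of these lipoxygenases, the 2 tested of 6 listed, were higher (median log2 0.54), where 18.8% of all genes were higher. Pla2g6, a calcium-independent phospholipase, fell by 0.44 under vehicle (adjusted p = 0.00903) and by 0.27 averaged over treatments (0.000647). Of 7 genes of arachidonate release 2 were higher and 1 lower averaged over treatments (42.9%, against 35.4% of all genes). The 2 higher ones, both phospholipases, were Pla2g12a at 0.18 (adjusted p = 0.0132) and Pla2g15 at 0.18 (0.0321). Under LXA4 Pla2g4a rose by 0.57 (adjusted p = 0.0317) and Pla2g15 by 0.39 (0.0137), and 0 of the 7 fell. The Pla2g4a call was lost without nondiabetic LXA4 replicate 1, 3, 4 or 6 or diabetic LXA4 replicate 3 or 5 (adjusted p up to 0.0838), and the averaged Pla2g15 call without nondiabetic LXA4 replicate 3, nondiabetic benzo-LXA4 replicate 5, or diabetic replicate 5 of any arm (up to 0.0595). Pla2g12a and, averaged, Pla2g15 lie outside the naming rule and were chosen after their values were seen, as was Pla2g4a. Downstream of Ltc4s, the γ-glutamyl transferases that process leukotriene C4 moved in opposite directions averaged over treatments, with Ggt1 at −0.36 (adjusted p = 0.000168) and Ggt5 at 0.33 (adjusted p = 0.000356).

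Among the other prostanoid enzymes, 3 of 9 rose and 3 fell averaged over treatments (66.7%, against 35.4% of all genes, 18.8% higher and 16.6% lower). Ptgis, prostacyclin synthase, rose by log2 0.58 (adjusted p = 0.000105), and Tbxas1, thromboxane synthase, fell by 0.52 (adjusted p = 0.00105). Akr1c18, an aldo-keto reductase with close relatives in sequence, fell by 1.02 (adjusted p = 0.000879). Cbr1 and Cbr3, carbonyl reductases of similar sequence, rose by 1.21 (adjusted p = 0.0173) and 1.35 (0.0106) under vehicle. Both calls were lost without diabetic vehicle replicate 4 or 5, with adjusted p up to 0.0893 and 0.0552, and Cbr1 exceeded its nondiabetic mean in 4 of 6 diabetic libraries.

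Of 5 genes of prostaglandin breakdown and transport, Slco2a1, the prostaglandin uptake transporter, rose by log2 0.33 (adjusted p = 0.000134) and Abcc4, an exporter, by 0.43 (0.00124) averaged over treatments, and Ptgr2, a prostaglandin reductase named after its value was seen, fell by 0.17 (0.00426). These are 3 of 5 (60%), against 35.4% of all genes. Among 13 P450 and hydrolase genes 3 rose and 4 fell (53.8%), with Cyp2j5 at −0.51 (adjusted p = 5.71e-05) and Cyp2j11 at −0.31 (4.22e-05). Cyp2j genes are similar in sequence, so the split of reads between them is uncertain. Of 10 eicosanoid receptors 3 were higher and 0 lower (30%), where 18.8% of all genes were higher and 35.4% passed in either direction.

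**Figure D5:**
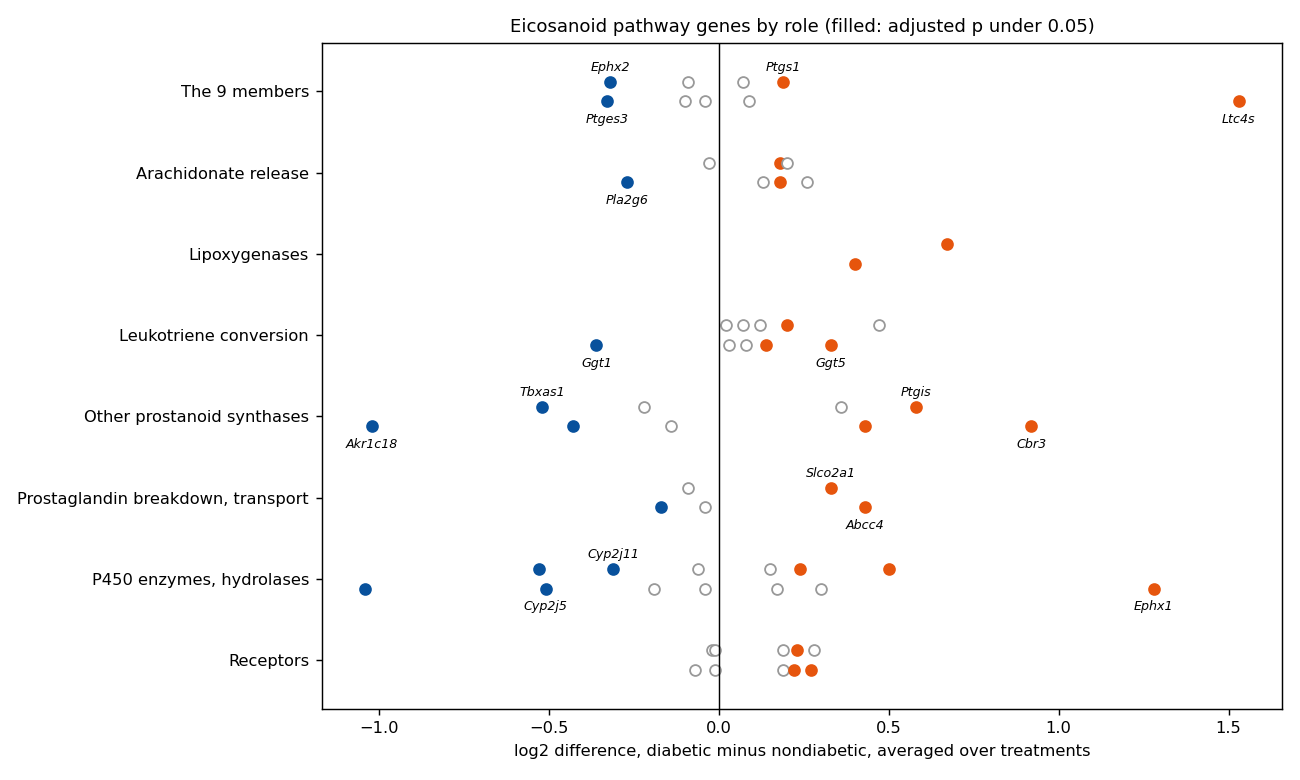
Log2 difference of diabetic from nondiabetic mice averaged over treatments for the 9 genes and for 56 other genes of the pathway, grouped by role; filled points passed an adjusted p of 0.05, and names are given for the filled points of the 9 genes and the 12 others with the smallest p. Ltc4s at 1.53 and Ephx1 at 1.28 lie farthest to the right.

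The genes whose libraries varied most like each changed gene were taken from Pearson correlations of log2 CPM deviations from the group means. For Ltc4s over 36 libraries they were Slc25a3 (r = 0.864), Metrn (0.856) and Uqcrc1 (0.851), and over the 34 libraries not rich in noncoding RNA they were Agtrap (0.772), Got2 (0.770) and Ctsa (0.765), so the leading genes depended on that pair. For Ptges3 they were Pdia3 (0.936), Mgme1 (0.906) and Cpox (0.887), and over 34 libraries Dnaja1 (0.933), Pdia3 (0.897) and Cacybp (0.890). For Ephx2 they were Btnl9 (0.896), Serpinf2 (0.884) and Slc30a2 (0.879), and over 34 libraries Ugt2b38 (0.913), Cideb (0.906) and Acsm2 (0.904). For Ptgs1 they were Tbc1d9 (0.817), Kif13b (0.801) and Rbpms (0.800), and over 34 libraries Slc7a6 (0.875), Nupr1 (0.837) and Entpd1 (0.833). These are descriptions, since the values of both genes come from the same libraries and share their depth.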

How the data were processed

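Values were deposited as raw counts per gene, for 36 libraries. Per the submitters' processing notes the authors used bcl2fastq 2.17.1.14, STAR, featureCounts and the GRCm38 genome. For the aligner and counter versions, annotation release, counting strand and treatment of multiply mapped reads, nothing is stated in the sources used here. Per the labels' protocols, directional libraries were made from 200 ng of RNA after removal of ribosomal RNA. The lowest total in the table was 370 counts per gene over all libraries, so rarer genes are not analysed here. Column codes were matched to the labels (C read as nondiabetic, D as diabetic), with 0 columns left over, and 15692 gene IDs were found in GENCODE M21, the source of coordinates and exon lengths.

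Groups were compared with edgeR 4.0.16 (quasi-likelihood F test, TMM factors, filterByExpr) in R 4.3.3, in 1 fit of all libraries, 2-sided, with Benjamini-Hochberg adjustment over the 15726 genes tested. Intervals (95%) use a standard error worked back from each p-value of this test, so they restate the test. Alternatives were other scaling factors, DESeq2 1.42.0, voom of limma 3.58.1 with quality weights, other filters, fewer groups, a replicate block and left-out libraries. The 9 members are always named. The naming rule for the other pathway genes was those past the threshold, at most 12 per comparison by smallest p. Not all genes that this rule covered are named, for example under LXA4, where 16 passed. For each member called averaged over treatments, the 3 most alike genes were named. RefSeq promoters (GRCm38.p6) were found for 7 of the 9 genes. Members and lists were chosen with earlier results of these data known.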

Additional observations from a re-analysis of the deposited data

Results flagged for a closer look

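Each of the 9 genes was checked in each of the 6 groups with Dixon's criterion (95% level) on log2 CPM for a library far from the others, and 6 of 54 such checks met it. For a single check chance gives about 1 in 20, but the genes share their libraries, so these checks are not independent of one another. Diabetic LXA4 replicate 6, in which 3 noncoding genes took 55.59% of the counts, was lowest for Lta4h (6.85 CPM, the next library 31 CPM), highest for Ptges2 (50.8 against 24.4 CPM) and lowest for Hpgd (2.36 against 6.74 CPM). Nondiabetic vehicle replicate 3, with 16.64%, was lowest for Lta4h (25.4 against 32.2 CPM). Diabetic LXA4 replicate 5, where these genes took 1.95%, was highest for Ptges (26.3 against 16.9 CPM) and lowest for Ephx2 (198 against 253 CPM). On the CPM scale itself 5 checks met the criterion, 4 of them the same: Lta4h in nondiabetic vehicle mice and Hpgd did not, and Ptges3 in diabetic LXA4 mice did.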

How the results depend on the processing

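Of 2293 values of the 9 genes recomputed under alternatives, 2270 kept their side of the threshold, 9 lost a call, 14 gained one and 0 called values reversed. The rise of Ltc4s was called in every arm under every alternative in which it was tested. Under vehicle 1 gene was called, against 2 with DESeq2 and 2 with voom (Ephx2 added), 0 when genes needed a mean of 5 CPM (Ltc4s and Alox5ap are then not tested), and 1 to 2 when libraries were left out in turn. Under benzo-LXA4 2 were called, against 0 with the 5 CPM filter (Ptges3 then at an adjusted p of 0.0508) and 1 to 2 with libraries left out. Voom also called Ptges2 and Lta4h lower under LXA4 and averaged over treatments. With the replicate block 1, 4, 2 and 4 of the 9 genes were called under vehicle, LXA4, benzo-LXA4 and averaged, as without it, and 0 in the other comparisons. Replicate numbers were not taken to pair libraries: same-numbered deviations correlated with a median r of −0.00348 (−0.417 to 0.465) over 90 pairs, 29 of them over 0.1, and in 17 of the 90 the same-numbered library was the best match. Nondiabetic vehicle and benzo-LXA4 libraries were the exception, with r from 0.0889 to 0.409 and the own number best in 5 of 6. Counts over all genes moved more: under vehicle 881 genes, 1330 with DESeq2, 2221 with voom, 342 with these 2 groups alone, 442 with the 5 CPM filter and 1399 without the libraries rich in noncoding RNA. Under LXA4 4353 became 6954 with voom and 2338 with these groups alone, and averaged over treatments 5570 became 8284 with voom. Under benzo-LXA4 638 became 1064 with DESeq2, 2568 with voom, 313 with the filter, 1875 with these groups alone and 1906 without those libraries. For LXA4 in diabetic mice 56 became 221 (DESeq2), 172 (voom), 1 (these groups alone), 28 (block), 35 (upper-quartile factors) and 93 (without those libraries). For the LXA4 interaction 39 became 257, 211, 0, 9, 80 and 129, with DESeq2, voom, these groups alone, block, filter and without those libraries; for benzo-LXA4 in diabetic mice 0 became 48 with DESeq2, 105 with voom, 3 with these groups alone and 48 without those libraries. With 1 library left out, the count under vehicle was 545 without nondiabetic replicate 6 and 1338, 555, 469 and 441 without diabetic replicates 2, 3, 4 and 5. Under benzo-LXA4 it was 389 and 413 without diabetic replicates 5 and 6. For LXA4 in diabetic mice it was 0, 1, 19 and 36 without vehicle replicates 2, 3, 5 and 6 and 16, 30 and 88 without LXA4 replicates 2, 4 and 5. For the LXA4 interaction it ran from 0 without diabetic vehicle replicate 3 to 106 without nondiabetic vehicle replicate 5. The lowest counts in a library were 8 for Alox5ap, 10 for Hpgd, 29 for Lta4h and 36 for Ltc4s.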
